A study of Rattus norvegicus with 8 samples.

Results

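The genes described are 6 of the metabotropic glutamate receptor genes of the rat, namely Grm5 of group I, Grm2 and Grm3 of group II, and Grm4, Grm7 and Grm8 of group III. They were found by the NCBI GeneID that each row carries, and are 6 of the 22601 genes listed in every library. The other genes of the family were not analysed here. The data are bulk RNA-seq libraries of the hippocampus of wild type Wistar rats weighing 180 to 220 g, with 1 library per rat and about 100 mg of bilateral tissue per extraction. The 3 groups were the vehicle control (Con., 3 rats), PTZ plus vehicle (PTZ, 3 rats) and PTZ plus Q808 (Q808, 2 rats). PTZ is pentylenetetrazole, a GABA-A receptor blocker that causes convulsions, and Q808 is a compound tested here against the seizures it causes.

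For kindling, the PTZ and Q808 rats were injected intraperitoneally with PTZ at 35 mg/kg every 48 h for 28 days (14 injections) and then with a final dose of 60 mg/kg. Con. rats received saline instead. Over the next 28 days Q808 rats were given Q808 at 30 mg/kg by daily gavage, while Con. and PTZ rats were given its solvent. A further sub-convulsive PTZ injection was given to the PTZ and Q808 rats before the tissue was taken, so their libraries carry both the kindling and a recent PTZ exposure. The Con. rats had neither. Age and sex were not given in the sources used here.

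Metabotropic glutamate receptors are G protein-coupled receptors that tune glutamate transmission rather than carry it. Group I receptors couple to Gq and phospholipase C and lie mainly on the postsynaptic side, whereas group II and III receptors couple to Gi/o, lower cyclic AMP and mostly reduce transmitter release from the presynaptic terminal. In the hippocampus the family is best known for synaptic plasticity at the mossy fibre and perforant path synapses and for its links to seizure threshold.

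Before the receptors are described, a difference between libraries that crosses the treatment groups has to be given. The summed level of 5 striatal genes (Drd1, Drd2, Adora2a, Rgs9 and Ppp1r1b) in FPKM (fragments mapped to a gene, scaled to its length and the library size) reached 1203 for Con.-3, 611 for PTZ-3 and 622 for Q808-1, against 46.0 to 61.9 for the other 5 libraries. The summed dentate granule cell list ran the other way, at 10.7 to 15.5 FPKM in those 3 libraries and 74.7 to 125 in the 5. The dentate gene Prox1 was at 2.84 to 4.04 FPKM in the 3 and at 12.2 to 16.6 in the 5, so the labelled tissue showed its defining gene clearly in only the 5 libraries. Oligodendrocyte genes summed to 6555 to 13140 FPKM in the 3 libraries and to 2524 to 4198 in the 5. Of the defining markers, Dsp and Tdo2 of the dentate list and Fibcd1, Spink8 and Iyd of the CA pyramidal list stayed below 1 FPKM in all 8 libraries. Each group thus held 1 library with high striatal genes, and the limma comparisons below are given with all libraries and again without these 3. The exact permutation tests use all libraries of the 2 groups compared and the correlations all 8 libraries, since too few remain without the 3.

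All 6 receptor genes were detected in all 8 libraries. Their levels per length fell into 3 tiers. Grm5, with a mean of 21.9 FPKM, and Grm3, with 17.9, were the highest, above 84.2% and 81.3% of all listed genes. Grm4 (7.20), Grm2 (6.31) and Grm7 (5.98) formed the middle, above 66.2%, 64.2% and 63.3% of the genes. Grm8, at 1.60 FPKM, stood above only 48.1% of them. Grm5 exceeded Grm3 in 6 of 8 libraries and Grm3 exceeded Grm2 in 7, so neither step held in every rat. The order within the middle tier changed with the library: Grm2 was above Grm4 and above Grm7 in the 5 libraries with low striatal genes and below both in the other 3, and Grm4 was above Grm7 in 4 of 8. Grm8 was below Grm4 and Grm7 in 8 of 8, and below Grm2 in 6 of 8, the exceptions being Con.-3 and Q808-1.

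**Figure D1:**
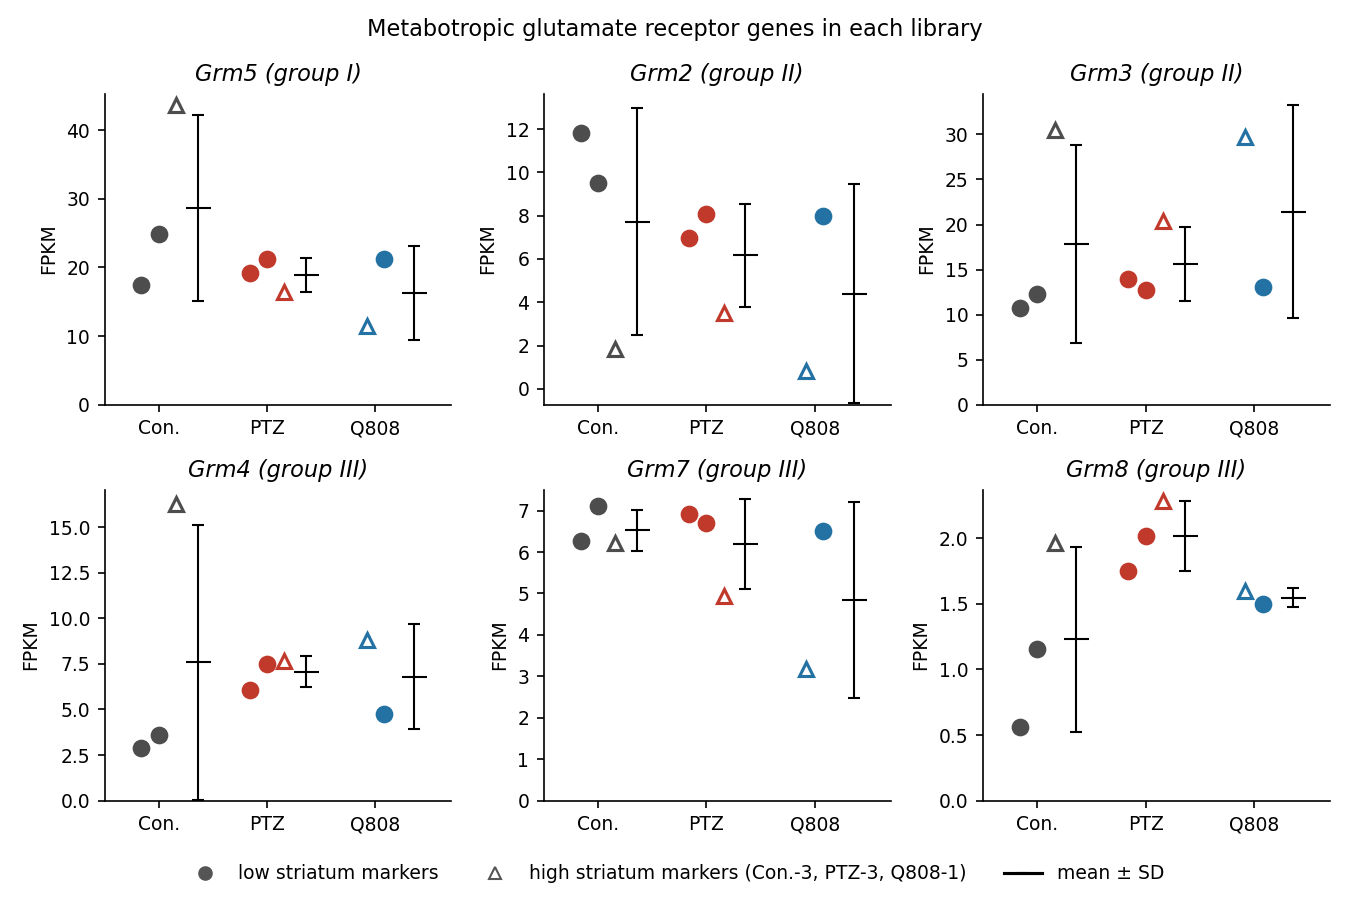
FPKM of each receptor gene (y axis, linear) in each library by group (x axis). Filled circles are the 5 libraries with low striatal genes, open triangles are Con.-3, PTZ-3 and Q808-1, and the bar is the mean ± SD of the group. In Grm2 the triangles lie at 0.818 to 3.48 FPKM, below every circle, and in Grm3 they lie at 20.4 to 30.5 FPKM, above every circle.

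Grm5 encodes the group I receptor of principal neurons, coupled to Gq. Its level was 17.4, 24.9 and 43.7 FPKM in Con.-1 to Con.-3. In the PTZ libraries it was 19.2, 21.3 and 16.4, and in the Q808 libraries 11.5 and 21.2. Con.-3 held the highest value and Q808-1 the lowest, and the ranges of the 3 groups overlapped. The means were 28.7 ± 13.5 (SD, n = 3) for Con., 19.0 ± 2.47 (n = 3) for PTZ and 16.3 ± 6.86 (n = 2) for Q808. Without Con.-3, PTZ-3 and Q808-1, the 5 values lay between 17.4 and 24.9 with no group apart.

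Grm2 encodes a presynaptic group II receptor found on the mossy fibres of dentate granule cells. It was at 11.8, 9.51 and 1.82 FPKM in Con.-1 to Con.-3. It was at 6.95, 8.06 and 3.48 in the PTZ libraries, and at 0.818 and 7.98 in the Q808 libraries. The lowest library of each group was the one with high striatal and low dentate genes. Among the 5 others both PTZ values and the Q808 value lay below both Con. values. Between the 2 Con. and 2 PTZ libraries of these, 54.1% of all genes tested did not overlap.

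Grm3 encodes the other group II receptor, which is carried by neurons and by astrocytes and binds the peptide transmitter NAAG (N-acetylaspartylglutamate). Its level was 10.7, 12.2 and 30.5 FPKM in Con.-1 to Con.-3. The PTZ libraries gave 13.9, 12.7 and 20.4, and the Q808 libraries 29.8 and 13.1. Here the highest library of each group was the one with high striatal genes, the mirror image of Grm2. Over the 8 libraries the log2 levels of Grm2 and Grm3 gave a Pearson r of -0.97, as a description of libraries that share the tissue difference above. The ratio of Grm2 to Grm3 ran from 0.500 to 1.10 in the 5 libraries and from 0.0275 to 0.171 in the other 3.

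Grm4, Grm7 and Grm8 encode the group III receptors of presynaptic terminals, which act as autoreceptors for glutamate. Grm7 had the narrowest range of the 6 genes relative to its level, at 6.26, 7.10 and 6.22 FPKM in Con.-1 to Con.-3. It was at 6.92, 6.70 and 4.94 in the PTZ libraries and at 3.18 and 6.51 in the Q808 libraries. Its group means were 6.53 ± 0.498 (SD, n = 3), 6.19 ± 1.08 (n = 3) and 4.85 ± 2.36 (n = 2), and the low Q808 mean rested on Q808-1. Among the 5 libraries with low striatal genes it lay between 6.26 and 7.10 FPKM.

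Grm4 was at 2.89, 3.59 and 16.3 FPKM in Con.-1 to Con.-3. It was at 6.09, 7.47 and 7.66 in the PTZ libraries and at 8.83 and 4.78 in the Q808 libraries. Con.-3 alone lay far above the rest, while Con.-1 and Con.-2 were the 2 lowest of all 8. Grm8 was at 0.563, 1.16 and 1.97 FPKM in Con.-1 to Con.-3. It was at 1.75, 2.02 and 2.28 in the PTZ libraries, and at 1.60 and 1.497 in the Q808 libraries. All PTZ values of Grm8 lay above both Q808 values and above Con.-1 and Con.-2, while Con.-3 lay above PTZ-1. The means were 1.23 ± 0.705 (SD, n = 3) in Con., 2.02 ± 0.266 (n = 3) in PTZ and 1.55 ± 0.0733 (n = 2) in Q808.

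Grm7 and Grm8 lie on the same chromosome and are members of the same group, the former with the narrowest range and the latter with the lowest level of the 6, so their promoters are shown side by side. They are the 250 bases before the RefSeq transcription start in the GRCr8 assembly, at chr4:145286476-145286725 on the plus strand for Grm7 and chr4:57687507-57687756 on the minus strand for Grm8, written 5′ to 3′ along the gene with matches to the GC box in capitals.
Grm7: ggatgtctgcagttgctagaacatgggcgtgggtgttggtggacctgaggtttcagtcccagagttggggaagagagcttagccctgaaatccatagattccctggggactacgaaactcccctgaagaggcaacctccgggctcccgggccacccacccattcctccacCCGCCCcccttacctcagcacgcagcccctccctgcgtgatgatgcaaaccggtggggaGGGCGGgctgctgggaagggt
Grm8: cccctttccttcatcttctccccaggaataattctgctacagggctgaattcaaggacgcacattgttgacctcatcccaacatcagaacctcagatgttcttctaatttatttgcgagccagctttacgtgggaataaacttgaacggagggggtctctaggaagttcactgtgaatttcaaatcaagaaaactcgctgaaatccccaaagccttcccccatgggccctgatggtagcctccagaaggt
The Grm7 promoter was 62% G or C with 9 CpG pairs and 2 GC boxes, starting 80 and 21 bases before the start site. The Grm8 promoter was 47.2% G or C with 5 CpG pairs and matched none of the 4 motifs searched. These were the GC box (GGGCGG), the cyclic AMP response element (TGACGTCA), the TATA box (TATAAA) and the AP-1 site (TGANTCA), each on both strands, and 30.5%, 1.59%, 12.9% and 6.34% of all 33469 promoters of this length held them. The medians of all promoters were 51.2% G or C and 5 CpG pairs. Among the 6 genes, 3 matched the RefSeq promoter table (Grm5, Grm7 and Grm8). The Grm5 promoter was 36.4% G or C with 1 CpG pair and no match. For each gene 1 start site was used, and any other start sites were not examined.

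The striatal and dentate genes moved with 4 of the 6 receptors. Grm2, Grm3, Grm4 and Grm7 had ranges that did not overlap between the 3 libraries with high striatal genes and the 5 with low ones, against 24.8% of the 15593 genes with a mean of at least 0.1 FPKM. The split was made on measured marker genes, so these ranges are a description. Grm3 and Grm4 were higher and Grm2 and Grm7 lower in the 3 libraries. Grm5 and Grm8 overlapped between the sets, at 11.5 to 43.7 against 17.4 to 24.9 FPKM and at 1.60 to 2.28 against 0.563 to 2.02 FPKM. In bulk tissue, fewer cells of a type and less RNA per cell cannot be told apart, nor can more tissue of a neighbouring region.

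**Figure D2:**
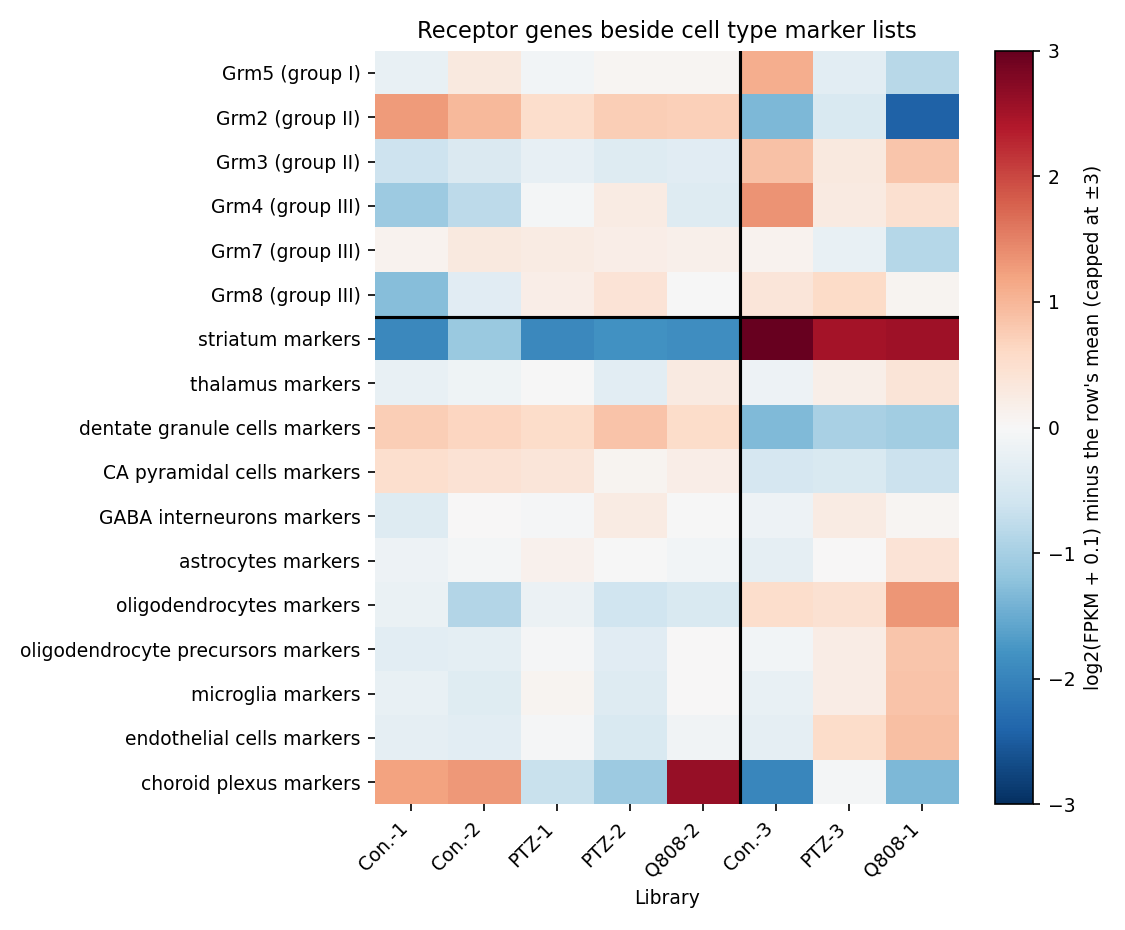
Colour gives log2(FPKM + 0.1) minus the mean of the row for each receptor gene (top) and for the mean of each marker list (below), capped at 3 either way, with libraries on the x axis. The 3 columns right of the vertical line are Con.-3, PTZ-3 and Q808-1, where striatal genes are high and dentate genes low. The choroid plexus row is highest in Con.-1, Con.-2 and Q808-2.

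Summed by group of the family, group I gave 28.7 ± 13.5 FPKM in the Con. rats (SD, n = 3), 19.0 ± 2.47 in the PTZ rats (n = 3) and 16.3 ± 6.86 in the Q808 rats (n = 2). Group II gave 25.5 ± 5.88, 21.8 ± 1.75 and 25.8 ± 6.75 FPKM. Group III gave 15.3 ± 7.96, 15.3 ± 0.790 and 13.2 ± 0.581 FPKM. The ranges of the treatment groups overlapped for each group of the family, with 1 exception. Group III lay at 14.8 to 16.2 FPKM in PTZ and at 12.8 to 13.6 in Q808, where 15.6% of all genes did not overlap. Without Con.-3, PTZ-3 and Q808-1, group I lay at 17.4 and 24.9 FPKM in Con., 19.2 and 21.3 in PTZ and 21.2 in Q808-2. Group II lay between 20.8 and 22.6 FPKM in these 5 libraries. Group III lay at 9.71 and 11.8 FPKM in Con., at 14.8 and 16.2 in PTZ and at 12.8 in Q808-2. Both PTZ values and the Q808 value were thus above both Con. values there. Between these 2 Con. and 2 PTZ libraries 54.1% of all genes did not overlap. The total of the 6 genes lay between 49.7 and 58.5 FPKM in 7 libraries and reached 100.4 in Con.-3.

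As a share of the 6 genes, group III stood at 19.5%, 20.2% and 24.3% in Con.-1 to Con.-3. It stood at 26.9%, 27.8% and 27.0% in the PTZ libraries and at 24.4% and 23.2% in the Q808 libraries. The PTZ range lay above both other ranges, also without Con.-3, PTZ-3 and Q808-1. The ranges of Q808 and Con. overlapped with all libraries, while without those 3 Q808-2 lay above both Con. values. The group means were 21.4 ± 2.59% (SD, n = 3), 27.2 ± 0.484% (n = 3) and 23.8 ± 0.844% (n = 2). The share is given as a description without a test. It also falls where genes of the other groups are higher, such as Grm5, at 43.7 FPKM in Con.-3. The share of group I was 35.1% to 43.5% in Con., 29.7% to 36.5% in PTZ and 20.6% to 38.5% in Q808, with overlapping ranges. The share of group II was 32.2% to 45.4%, 35.7% to 43.3% and 38.2% to 54.9%.

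**Figure D3:**
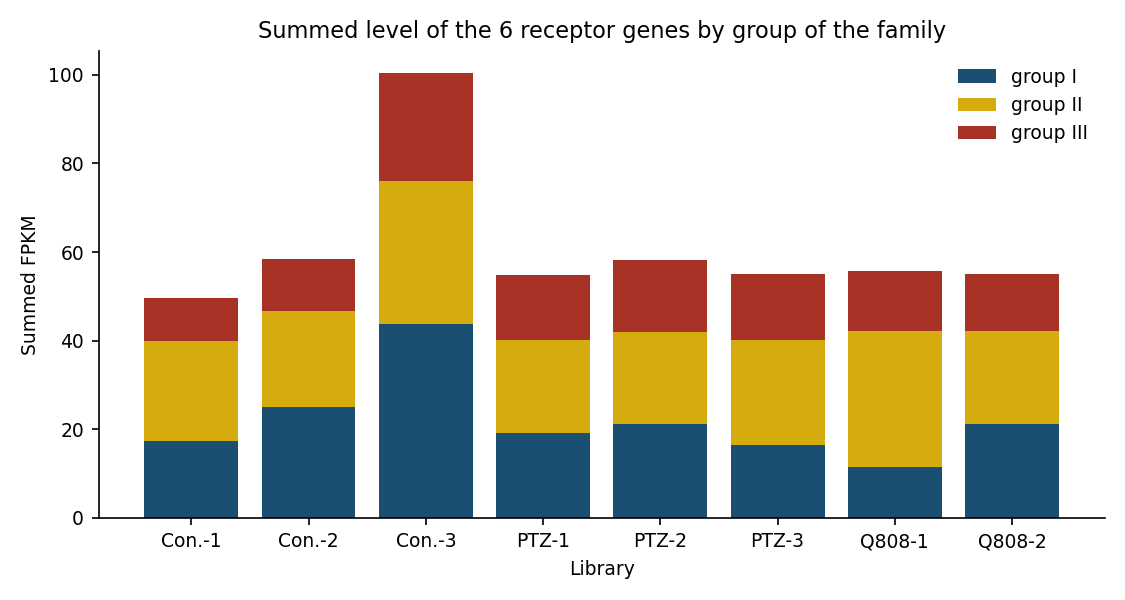
Stacked bars give the summed FPKM (y axis, from 0) of the group I, II and III genes in each library (x axis). Con.-3 reaches 100.4 FPKM in all while the other 7 libraries lie between 49.7 and 58.5 FPKM.

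The first comparison asks which receptor genes differ in PTZ-kindled rats. With all libraries none of the 6 passed the test in PTZ against Con. (limma on log2(FPKM + 0.1), with a call at an unadjusted p under 0.05 and over 1.5-fold), where 2.53% of all genes tested were called. None had an unadjusted p under 0.05 either, against 3.78% of all genes. No gene of the whole table had a Benjamini-Hochberg adjusted p under 0.05 (0 of 15593, 0%). On the log2 scale Grm8 was 0.81 higher in PTZ (SE 0.43, limma adjusted p = 0.999), a difference of 1.76-fold. Grm5 was 0.50 lower (log2 -0.50, SE 0.32), and Grm4 0.34 higher (SE 0.60), each with an adjusted p of 0.999. Grm2 (-0.03, SE 0.70), Grm3 (-0.05, SE 0.40) and Grm7 (-0.09, SE 0.19) had differences well under their errors. No member had groups that did not overlap, against 9.15% of all genes. The exact two-sided permutation p was 0.2 for Grm8 and 0.3 to 1 for the other 5, where the smallest value that 3 rats against 3 allow is 0.1. The median log2 difference of the 6 genes was -0.04, as was that of all genes.

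In the libraries with low striatal genes (2 Con. against 2 PTZ) 2 of the 6 receptor genes were called, both of group III and both higher in PTZ. All genes were called at 9.81%, and at 4.1% in the higher direction, so calls were common in this smaller set. Grm4 was 3.24 FPKM on average in Con. and 6.78 in PTZ, a rise of 1.04 on the log2 scale (SE 0.20, 2.06-fold). Grm8 rose by 1.12 (SE 0.37, 2.17-fold). Grm2 was 0.50 lower (log2 -0.50, SE 0.17), which is 1.41-fold and below the fold threshold. Counted by the p alone, the members with p under 0.05 were Grm2, Grm4 and Grm8, against 19.5% of all genes. The Benjamini-Hochberg adjusted limma p was 0.0976 for Grm4, 0.204 for Grm8 and 0.205 for Grm2, so none of the 3 passed it, while 0.898% of all genes did. Over the 17 alternative fits the adjusted p ran from 0.0976 to 1 for Grm4, from 0.204 to 1 for Grm8 and from 0.205 to 1 for Grm2. Grm3 (0.21, SE 0.13), Grm5 (-0.04, SE 0.18) and Grm7 (0.03, SE 0.15) were not called. Between these 2 and 2 libraries 54.1% of all genes did not overlap, so ranges that stay apart carry little here.

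The remaining pair of libraries, Con.-3 and PTZ-3, did not repeat the difference in Grm4. There Grm4 was 1.08 lower in PTZ on the log2 scale (-1.08), and Grm8 0.21 higher, with 1 library a group and no test. These 2 libraries were not alike in striatal genes, which summed to 1203 FPKM in Con.-3 and 611 in PTZ-3. The part of that difference in the values of Grm4 and Grm8 was not tested. Grm8 was higher in PTZ in all 17 alternative fits, by 0.39 to 1.21 on the log2 scale. It was called in 4 of them, including the fit with the replicate number as a block (limma adjusted p = 0.785), where 3.95% of all genes were called, and the fit with the striatum list as a covariate (0.92, SE 0.32, limma adjusted p = 0.622), where 4.06% were. Without Con.-1 its difference was 0.39. Grm8 is among the genes that the study itself picked from these libraries, so its values here are no independent evidence. Single libraries decided the other values too: without Con.-3 the difference of Grm4 was 1.10 and that of Grm5 -0.14, and without Con.-1 they were -0.12 and -0.80, the last of which was called (limma adjusted p = 1), where 2.17% of all genes were.

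Choroid plexus genes differed between the treatment groups in the same small set. The 6 genes of that list, with Otx2 at 0 in every library, summed to 2522 and 2493 FPKM in Con.-1 and Con.-2, to 405 and 275 in PTZ-1 and PTZ-2, and to 6394 in Q808-2. The 5 tested genes of the list were all called lower in PTZ against Con. in these libraries and higher in Q808 against PTZ. In all libraries 0 of 5 were called in either comparison. Of all other marker lists 1 gene, Tmem119 of microglia, was called in PTZ against Con. in this set. The part of the choroid plexus difference in the values of Grm4, Grm8 and Grm2 was not tested.

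**Figure D4:**
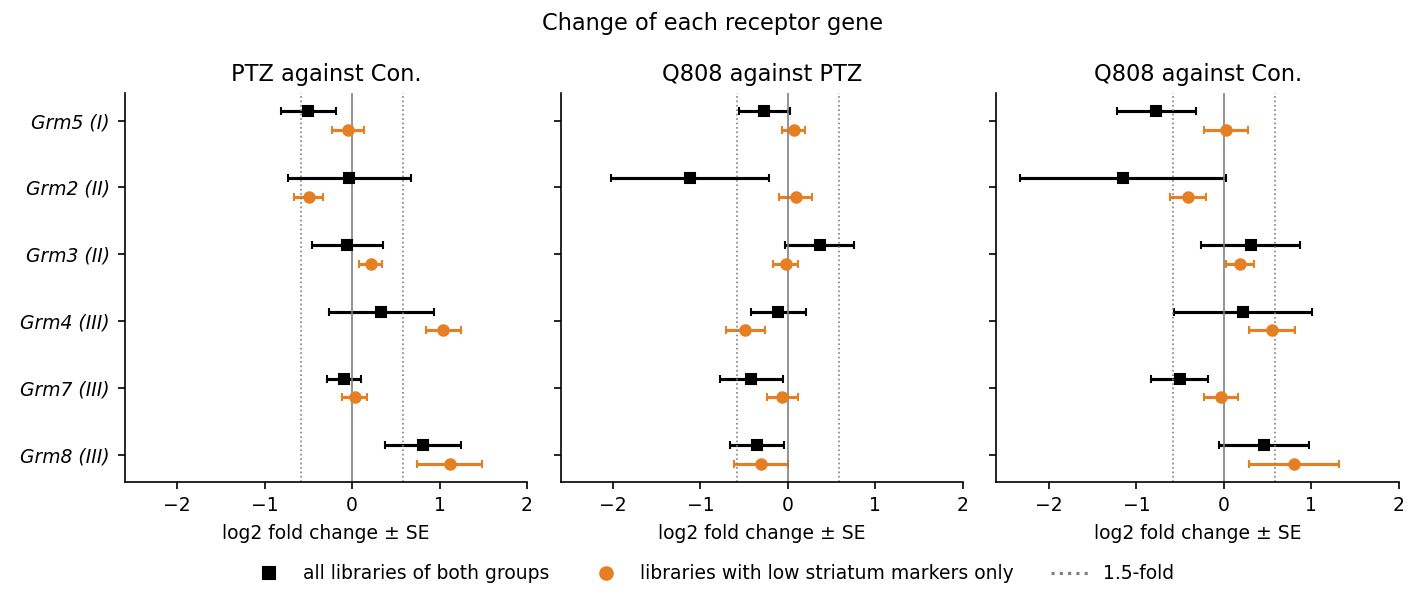
Points give the log2 fold change of each receptor gene (y axis) in each comparison, with the SE as bars, from all libraries (black squares) and from the 5 libraries with low striatal genes (orange circles). Dotted lines mark 1.5-fold. In PTZ against Con. only the orange points of Grm4 (1.04) and Grm8 (1.12) lie beyond the lines by more than their SE.

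The second comparison asks which receptor genes differ after Q808 in kindled rats. None of the 6 was called in Q808 against PTZ with all libraries, where 1.92% of all genes were called. None had an unadjusted limma p under 0.05, against 2.19% of all genes, and no gene passed the adjusted p (0%). Grm8 was 0.35 lower in Q808 on the log2 scale (-0.35, SE 0.31, 1.28-fold, limma adjusted p = 0.952), and it was the 1 member whose groups did not overlap, against 15.6% of all genes. Its exact permutation p was 0.2, where 2 rats against 3 allow no less than 0.1. Grm2 was 1.12 lower (-1.12, SE 0.90, limma adjusted p = 0.952), which rested on Q808-1: without that library it was 0.45 higher. Grm3 (0.36, SE 0.39), Grm4 (-0.11, SE 0.31), Grm5 (-0.27, SE 0.29) and Grm7 (-0.42, SE 0.36) were within about 1 SE of 0. The median of the 6 genes was -0.31, and that of all genes was 0.10.

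With only the libraries with low striatal genes, Q808-2 stood alone against PTZ-1 and PTZ-2, and it was assumed to vary as the PTZ libraries do. None of the 6 was called there either, where 9.26% of all genes were. Grm4 was 0.49 lower in Q808 (-0.49, SE 0.22, limma adjusted p = 0.433) and Grm8 0.31 lower (-0.31, SE 0.31). Grm2, Grm3, Grm5 and Grm7 lay within 0.09 of 0 on the log2 scale. Without Q808-2, that is with Q808-1 alone in the group, 4 members were called: Grm2 (-2.69), Grm3 (0.95), Grm5 (-0.71) and Grm7 (-0.92), where 8.34% of all genes were called. Q808-1 is a library with high striatal genes set there against 2 PTZ libraries with low ones.

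The third comparison sets Q808 rats against Con. rats. None of the 6 was called with all libraries, where 3.46% of all genes were. None had an unadjusted limma p under 0.05, against 4.28% of all genes, and 0.00641% of genes (1 of 15593) passed the adjusted p. No member had groups that did not overlap, against 20% of all genes. Grm5 was 0.77 lower in Q808 on the log2 scale (-0.77, SE 0.45, limma adjusted p = 0.901) and Grm7 0.51 lower (-0.51, SE 0.33). Grm8 was 0.46 higher (SE 0.51) and Grm2 1.15 lower (-1.15, SE 1.18). Grm3 (0.31, SE 0.57) and Grm4 (0.22, SE 0.79) had the least certain signs.

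With the low striatal libraries alone (Q808-2 against Con.-1 and Con.-2, the lone library again assumed to vary as the others) none was called, where 4.71% of all genes were. Grm8 was 0.81 higher (SE 0.52, limma adjusted p = 0.894) and Grm4 0.55 higher (SE 0.26, adjusted p = 0.882). Grm5 (0.02) and Grm7 (-0.03) were near 0. Marker lists differed in this fit too. The median log2 difference was 1.67 for the choroid plexus list and 0.05 for all genes. The other marker lists lay between -0.32 (striatum) and 0.34 (oligodendrocyte precursors), with dentate granule cells at -0.27 and CA pyramidal cells at -0.31. The part of these differences in the values of the receptors, and of Rgs4 given below, was not tested. With the striatum list as a covariate Grm2 was called lower (-1.07, SE 0.28, limma adjusted p = 0.403, which over the alternatives ran from 0.392 to 1), where 7.49% of all genes were called. The 3 comparisons share their libraries, so their values are set side by side and are not evidence for each other.

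The receptor partners were read from 4 lists, 42 genes in all, of which 41 were found and tested. The lists were chosen with earlier results of these data known, so counts of called partners are a description. They cover the Gq pathway and scaffolds of group I, the Gi/o proteins, adenylyl cyclases and potassium channels of groups II and III, the enzymes of NAAG, and the kinases, arrestins and RGS proteins that end receptor signalling. In PTZ against Con. with all libraries none of the 41 was called, where 2.53% of all genes were. The 3 smallest p belonged to Plcb1, the phospholipase C of the Gq pathway (log2 -0.49, SE 0.22), Tamalin, a scaffold that binds group I receptors (1.40, SE 0.68), and Rgs4, which speeds the shut-off of Gq and Gi/o proteins (1.18, SE 0.63), each with a limma adjusted p of 0.999. Plcb1 was highest in Con.-3, at 56.1 FPKM, and its log2 difference was -0.15 in the libraries with low striatal genes. The median of the 41 genes was 0.08 and that of all genes -0.04.

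In the libraries with low striatal genes 4 of the 41 rose in PTZ against Con. and none was called lower, beside 4.1% of all genes called higher and 5.71% called lower. Of the 41 differences 25 were above 0 and 16 below. Tamalin was at 24.4 and 23.4 FPKM in Con.-1 and Con.-2, and at 122 and 148 in PTZ-1 and PTZ-2. Homer1, a scaffold that links group I receptors to calcium stores and whose short form is induced by activity, was at 17.7 and 20.2 FPKM against 44.5 and 66.3. The gene-level values do not separate the Homer1 forms. Tamalin rose by 2.49 on the log2 scale (SE 0.12, limma adjusted p = 0.00569) and Homer1 by 1.52 (SE 0.20, adjusted p = 0.0466), and both passed the Benjamini-Hochberg adjustment in this set. Over the 17 alternatives their adjusted p ran from 0.00569 to 1 and from 0.0466 to 1. Rgs2, which acts on Gq, rose by 1.54 (SE 0.30, limma adjusted p = 0.102), and Rgs4 by 1.98 (SE 0.49, adjusted p = 0.148). Their adjusted p ran from 0.102 to 1 and from 0.148 to 1. Over the 17 alternatives Tamalin and Rgs2 were each called in 2, and Homer1 and Rgs4 in 3.

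PTZ-3 stood apart from PTZ-1 and PTZ-2 in 2 of these genes. Tamalin was at 22.5 FPKM there, against 38.4 in Con.-3, and Homer1 at 23.6, against 38.8. Rgs2 was at 75.7 in PTZ-3 against 125 in Con.-3, and Rgs4 at 82.8 against 110. So in the pair of libraries with high striatal genes all 4 were lower in PTZ, with 1 library a group and no test. The striatal genes were also lower in PTZ-3, at 611 FPKM in sum against 1203 in Con.-3. The part of that difference in the 4 genes was not tested.

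In Q808 against PTZ with all libraries 2 of the 41 were called, both lower in Q808, beside the 0.564% of all genes called lower and 1.92% called in either direction. Rgs2 was at 64.3, 116 and 75.7 FPKM in PTZ and at 56.3 and 30.3 in Q808, and fell by 1.00 on the log2 scale (SE 0.35, limma adjusted p = 0.952). Homer1 was at 44.5, 66.3 and 23.6 FPKM in PTZ and at 20.2 in both Q808 libraries, and fell by 1.03 (SE 0.41, limma adjusted p = 0.952). The PTZ and Q808 values of these 2 genes did not overlap, as for 15.6% of all genes. Over 16 alternatives Rgs2 was called in 9 and Homer1 in 7, always lower. Tamalin, with 122, 148 and 22.5 FPKM in PTZ and 27.1 and 24.8 in Q808, had the next smallest p (log2 -1.51, SE 0.78, limma adjusted p = 0.952), and its groups overlapped through PTZ-3. With the low striatal libraries alone Tamalin, Homer1 and Rgs2 were called lower in Q808-2 (-2.43, -1.43 and -1.51), beside 2.2% of all genes called lower. Marker genes moved in the same fit: of 4 dentate granule cell genes 2 were called lower in Q808-2 and 1 higher, 1 thalamus and 1 oligodendrocyte precursor gene were called higher, and all 5 choroid plexus genes were higher, as given above. The dentate gene C1ql2 was at 82.5 and 96.7 FPKM in PTZ-1 and PTZ-2 and at 50.6 in Q808-2. The part of these differences in the values of Tamalin, Homer1 and Rgs2 was not tested.

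In Q808 against Con. none of the 41 was called with all libraries, where 3.46% of all genes were. Of the marker lists, 1 thalamus, 2 oligodendrocyte precursor, 1 microglia and 2 endothelial genes were called higher in that fit, and 1 CA pyramidal gene lower. Plcb1 (-0.57, SE 0.25), Folh1, the enzyme that cleaves NAAG (0.66, SE 0.33), and Gnai2, a Gi subunit (0.29, SE 0.16), had the smallest p, each 0.901 after adjustment. Plcb1 was highest in Con.-3, at 56.1 FPKM, and Folh1 in Q808-1, at 17.5. With the low striatal libraries alone the differences were smaller, at -0.22 for Plcb1, 0.31 for Folh1 and 0.12 for Gnai2, with 1 Q808 library. In the low striatal libraries Rgs4 alone was called, higher in Q808-2 at 54.7 FPKM than in Con.-1 and Con.-2 at 20.8 and 35.9 (1.00, SE 0.36, limma adjusted p = 0.866), beside 3.91% of all genes called higher. Over the alternatives its adjusted p ran from 0.491 to 1.

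**Figure D5:**
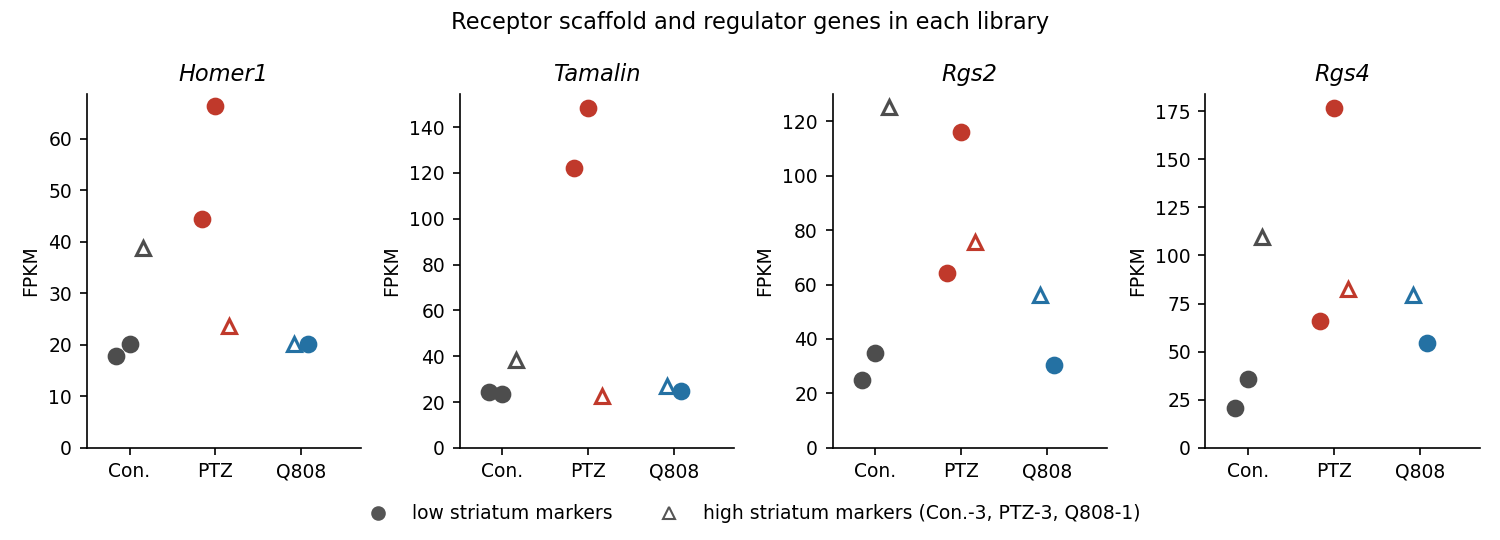
FPKM (y axis, from 0) of Homer1, Tamalin, Rgs2 and Rgs4 in each library by group (x axis), with symbols as in the plot of the receptor genes. Homer1 and Tamalin are highest in PTZ-1 and PTZ-2, at 44.5 and 66.3 and at 122 and 148 FPKM, with Con.-3 next at 38.8 and 38.4, while Rgs2 and Rgs4 in Con.-3 reach 125 and 110 FPKM.

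The genes whose log2 level followed each receptor most closely were searched among 12562 genes with a mean of at least 1 FPKM. The Pearson r is over the 8 libraries, which share the striatal split, and is a description. Among the 3 genes nearest to Grm5 were Adcy3 (r = 0.966) and Tnik (0.966). Grm2 was nearest to Nmb (0.994), Tomm34 (0.993) and Mal2 (0.991), all low in Con.-3, PTZ-3 and Q808-1. Grm3 was nearest to Slc22a23 (0.991), Gjc3 (0.989) and Gnb4 (0.989), all high there. Grm4 was nearest to Actn1 (0.989), Mn1 (0.977) and Kcnh2 (0.974). Among the 3 nearest to Grm7 were Nsf (0.989) and Pnma8b (0.987). Grm8 was nearest to Dok5 (0.963), Rab3b (0.954) and Fhod3 (0.947). Among the receptors themselves Grm3 and Grm4 gave 0.86, Grm2 and Grm7 0.82, and Grm4 and Grm8 0.77.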

How the data were processed

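After trimming with Trimmomatic, the authors computed the FPKM of each gene with Cufflinks and deposited 1 table per library. The submitters' processing notes also name HISAT2, Bowtie2, StringTie, SAMtools, HTSeq and DESeq. The genome build and tool versions are not given in the sources used here. FPKM give no read counts, so counting error is unknown and precision rests on the spread between rats. The study lists the amount of clean sequence per sample, which was not used here. The p-values measure the spread between these rats' libraries.

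Groups came from the library titles. Genes were matched by NCBI GeneID, and 20633 of 22601 had a RefSeq symbol. The members and all lists were chosen with earlier results of these data known. The 15593 genes with a mean of at least 0.1 FPKM were tested on log2(FPKM + 0.1), which understates changes of low genes, with limma 3.58.1 (R 4.3.3, trended empirical Bayes) on the 2 groups of each comparison. Calls were made at an unadjusted p under 0.05 and over 1.5-fold. The 6 receptors were named in full, and of the partner lists every called gene, or the 3 with the smallest p where fewer than 3 were called. Exact permutation tests over libraries and figures used Python 3.11.15 with numpy 2.4.6, pandas 2.3.3 and matplotlib 3.10.9. The fit was run on simulated data only as a check of the code. Those data mostly had a smaller spread between libraries than measured here and no striatal split. The check therefore does not tell how well the fit finds changes in these libraries. Results of 3 genes, 1 of them of the striatum list, are not reported here.

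Same-numbered Con. and PTZ libraries deviated together from their group means (r = 0.309, 0.392 and 0.472 across 12563 genes), so the number was tried as a block, from the data alone, since no label states a pairing. Con.-2 also correlated with PTZ-1, at 0.452, and Con.-1 with PTZ-2, at 0.120. Across the striatal split the values were negative. They were -0.251 for Con.-1 and -0.523 for Con.-2 with PTZ-3, and -0.466 and -0.311 for Con.-3 with PTZ-1 and PTZ-2. The sign thus followed the striatal split in every Con. and PTZ pair, and whether the numbers are pairs was not tested. The main fits and the permutation tests did not use the pairs. Alternatives were other pseudocounts (0.01 and 1), filters, scalings, fits, the replicate block, the striatum list as a covariate, and libraries left out.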

Additional observations from a re-analysis of the deposited data

How the results depend on the processing

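Of the 294 values of the 6 receptors under alternative settings, 251 kept their direction and their side of the threshold, 15 became called and 28 changed sign. Grm8 kept its direction in all 49. With all genes, calls in PTZ against Con. went from 395 to 219 with a pseudocount of 1, 616 with the replicate block, 633 with the striatum covariate, 1530 with the low striatum libraries only, and 249 to 1135 leaving out 1 library. In Q808 against PTZ they went from 300 to 193 at a mean of at least 1 FPKM, 1894 with the block, 585 with the covariate, 1444 with the low striatum libraries only, and 132 to 1569 leaving out 1 library. In Q808 against Con. they went from 540 to 340 with a pseudocount of 1, 1076 with the block, 1168 with the covariate, and 279 to 1799 leaving out 1 library. Quantile normalization moved the split of higher to lower calls from 212 and 88 to 130 and 142 in Q808 against PTZ, and from 479 and 61 to 283 and 158 in Q808 against Con.; median ratio scaling gave 401 and 99 in the latter. The cause of these shifts was not tested.

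Receptors called went from 0 to 1 with the block, 1 with the covariate, 2 with the low striatum libraries only and 0 to 2 leaving out 1 library in PTZ against Con., to 0 to 4 leaving out 1 library in Q808 against PTZ, and to 1 with the block (Grm4, 0.99), 1 with the covariate (Grm2) and 0 to 1 leaving out 1 library in Q808 against Con. Whether the numbers of the Q808 libraries are pairs cannot be told. Deviations of same-numbered libraries correlated at -0.463 and 0.661 with Con. and at -0.439 and 0.416 with PTZ. The deviations of 2 Q808 libraries mirror each other, so these values cannot decide it, and the block there pairs by number only. No Q808 library bears the number 3, so the block takes up Con.-3 or PTZ-3 wholly. Its log2 differences there are those of the fit without that library, such as 0.99 for Grm4. The block changed no other receptor call.

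Signs turned as follows, on the log2 scale. In PTZ against Con., Grm2 was 0.00955 with quantile normalization and 0.0126 with median ratio scaling, Grm3 0.212 with the low striatum libraries only and 0.0782 with the covariate, and Grm7 0.0299 with the low striatum libraries only. Leaving out 1 library, Grm2 ran from -0.857 to 0.459, Grm3 from -0.333 to 0.415, Grm4 from -0.123 to 1.1 and Grm7 from -0.176 to 0.0628. In Q808 against PTZ the low striatum libraries gave 0.09 for Grm2, -0.0261 for Grm3 and 0.0655 for Grm5. Leaving out 1 library, Grm2 ran from -2.69 to 0.451, Grm3 from -0.23 to 0.953, Grm4 from -0.55 to 0.323, Grm5 from -0.711 to 0.167 and Grm7 from -0.924 to 0.0891. In Q808 against Con. Grm5 was 0.0232 with the low striatum libraries only. Leaving out 1 library, Grm2 ran from -2.72 to 0.419, Grm3 from -0.282 to 0.9, Grm4 from -0.236 to 0.989 and Grm7 from -1.01 to 0.000299. Leaving out 1 Q808 library leaves 1 in that group, which is assumed to vary as the others. Read depth was not weighed in any of these fits.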
